A study of Mus musculus with 23 samples.

Results

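The regions described here are the stretches of open chromatin that had an ATAC-seq peak in both libraries of control Kupffer cells of the Nr1h3 experiment and no peak in any of the 4 libraries of Kupffer cells that lacked Nr1h3. Peaks of all 23 libraries that overlapped by at least 1 bp were merged into 155137 regions on the autosomes and the X chromosome. Of these, 52542 were called in both controls, and 2195 of them (4.18%) had no knockout peak and are called knockout-absent regions below. They were chosen on the Nr1h3 libraries themselves, so their difference between controls and knockouts is a description and carries no test. Without control replicate 1 the same rule gave 3896 regions, and without control replicate 2 it gave 5677. Dropping a required control can only add regions.

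ATAC-seq inserts sequencing adapters into accessible DNA with a transposase, and the study used it on mouse monocytes and macrophages to follow how the liver shapes Kupffer cells. The Nr1h3 controls were Nr1h3 flox/flox mice, and the knockouts were Nr1h3 flox/flox mice with Clec4f-cre +/-, all untreated. The controls carried no Cre, so the Cre allele and the loss of Nr1h3 cannot be told apart. Clec4f-cre acts in cells that express the Kupffer lectin Clec4f. The titles call the control cells KcClecNegTim4Pos and the knockout cells KcClecPosTim4Pos or KcClecPosTim4Neg. What Clec stands for there is not stated, the gate names of controls and knockouts differ, and TIM4-negative control cells were not analysed here. Each of the 3 groups had 2 libraries.

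The other 17 libraries were not used to choose the regions. Kupffer cells from Clec4f-cre/Rosa26iDTR mice given PBS gave 2 libraries. Repopulating liver macrophages from mice of that strain gave 3 libraries 24 h after diphtheria toxin and 2 libraries after 48 h. Blood Ly6C-high monocytes came from untreated C57BL/6J mice (2 libraries). Bone marrow-derived macrophages (BMDMs) of C57BL/6J mice, cultured for 4 days, were left untreated (2 libraries) or exposed to the Notch ligand DLL4 for 24 h (2 libraries). In the Smad4 experiment, the titles name 2 libraries as knockout (Smad4KO_KC) and 2 as control (Control_KC). The strain labels conflict with this, giving Smad4 flox/flox for the former and Smad4 flox/flox with Clec4f-cre +/- for the latter. Smad4 groups are called titled knockout and titled control below, and should the strain labels hold, each direction between them is the opposite one. Ages are not given in the labels.

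LXRα, the product of Nr1h3, is a nuclear receptor that is switched on by oxidised cholesterol derivatives and binds DNA together with RXR. Its classical targets move cholesterol out of cells (Abca1), make fatty acids (Srebf1, Scd1) and clear dying cells (Mertk). Kupffer cells are the resident macrophages of the liver sinusoids, and LXRα is one of the factors that maintain their identity.

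All values below are normalised tag counts, the tags in a peak scaled to 10 M tags per library. A region with no peak in a library has no value there, which is not a value of 0 and does not show that the chromatin was closed. The peak caller's threshold lay between 5.3 and 8.63 normalised tag counts. The libraries held 10.4 to 18.4 M tags, of which 15.4% to 54.7% lay in peaks. In the Nr1h3 experiment the controls had 17.3 and 15.1 M tags and 65621 and 58395 peaks. The TIM4+ knockouts had 15.7 and 14.7 M tags but only 48775 and 53972 peaks, and the TIM4- knockouts 17 and 18.4 M tags and 68613 and 68757 peaks. At the Nr1h3 gene, 4 regions were called in all 6 libraries, which does not check the deletion of a floxed exon. Kupffer markers had a peak at a gene end for 7 and 8 of 8 genes in controls and 6 of 8 in each knockout library. Untreated BMDM libraries had 5 of 8, and those with DLL4 and the titled Smad4 knockouts 4 or 5. This count therefore does not set Kupffer cells apart from cultured macrophages.

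The DNA of 3 of the regions is shown here, as the part of each upstream of a start site, because each touches a result below. Clec1b encodes a C-type lectin of Kupffer cells, Mmp12 a macrophage elastase, and Gm16271 is a gene whose start lies inside Stab2. Sequences are from RefSeq promoter windows (GRCm38.p6), on the strand of the named gene. Capitals mark matches to the searched motifs. These are a DR4 element (2 copies of AGGTCA with 4 bases between them, up to 2 mismatches), a single AGGTCA, AP-1 (TGANTCA), an E-box (TCACGTGA, up to 1 mismatch) and a SMAD palindrome (GTCTAGAC, up to 1 mismatch).
Clec1b, chr6:129397189-129397296, + strand: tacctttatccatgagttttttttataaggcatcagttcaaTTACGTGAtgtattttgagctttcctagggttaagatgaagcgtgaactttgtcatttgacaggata
Mmp12, chr9:7347148-7347373, + strand: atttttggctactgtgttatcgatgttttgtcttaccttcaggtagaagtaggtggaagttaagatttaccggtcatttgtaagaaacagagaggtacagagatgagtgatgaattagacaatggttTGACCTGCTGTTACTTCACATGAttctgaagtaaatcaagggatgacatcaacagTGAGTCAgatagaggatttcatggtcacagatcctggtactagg
Gm16271 inside Stab2, chr10:86971978-86972140, + strand: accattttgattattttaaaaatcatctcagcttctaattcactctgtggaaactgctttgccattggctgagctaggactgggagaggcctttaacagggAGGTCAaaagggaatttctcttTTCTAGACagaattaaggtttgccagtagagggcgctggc
The Clec1b stretch holds an inexact match to the searched E-box 67 to 60 bases before the start site. It reads TTACGTGA, with 1 mismatch, inside the CACGTG core of the motif. The Mmp12 stretch holds a DR4 match on the opposite strand at 99 to 84 bases before the start, overlapped at its last base by an E-box match, and an AP-1 match at 44 to 38 bases. The Gm16271 stretch holds an AGGTCA at 62 to 57 bases and a SMAD match at 40 to 33 bases. A match is a description of letters and not evidence of binding.

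The knockout-absent regions were mostly weak peaks. Their mean signal over the 2 controls had a median of 12.3 (interquartile range 9.64 to 18.3, range 5.9 to 148), against 42.4 for the 39439 control regions with a peak in all 4 knockout libraries. In replicate 1 the median was 13.3, which was 23 tags, and in replicate 2 it was 11.2, or 17 tags. Only 475 regions reached a mean of 20, and 72 reached 50. Just outside the rule were 1766 control regions with a peak in exactly 1 knockout library. Their control signal was alike (median 12.6), and their single knockout peak had a median of 9.57 (interquartile range 7.66 to 13.6). That peak was in a TIM4- library for 70.6% of them and in a TIM4+ library for 29.4%. A further 3403 control regions had a peak in 2 knockout libraries, among them 2260 in both TIM4- libraries alone and 242 in both TIM4+ libraries alone.

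The absence of a knockout peak inside a region did not always mean that none was near. A knockout peak lay within 1 kb of 555 regions (25.3%) and between 1 and 5 kb from 520 (23.7%). The remaining 1120 (51%) had none within 5 kb. Fewer cells with an open region and less opening per cell cannot be told apart in such bulk libraries.

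Few of these regions lay at promoters, as was true of other control regions of like signal. Their median width was 285 bp, 55.9% were inside a protein-coding gene body and 20.2% were more than 50 kb from any. For control regions with a peak in all 4 knockout libraries these shares were 66.8% and 7.35%, and for those with 1 knockout peak 59.7% and 13.1%. A RefSeq promoter window (250 bases before to 50 after a start) was touched by 66 of the 2195 (3.01%), against 4.19% of the regions with 1 knockout peak, 4.94% of those with 2, 22.8% of those with 4 and 18.4% of all control regions. Another knockout-absent region lay within 10 kb of 383 (17.4%), against 8.15% for the 1766 regions with 1 knockout peak counted among themselves, a share that also depends on how many regions a set holds. By nearest gene within 50 kb they fell to 1333 genes, of which 1057 had a single region and 276 had at least 2.

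The strongest of them was in Hgsnat, which encodes a lysosomal enzyme of heparan sulfate breakdown (chromosome 8, 25973070 to 25973340). It measured 171.8 and 124.8 in the Nr1h3 controls, 93.8 and 128.5 in PBS Kupffer cells, 82.4 and 95.7 in titled Smad4 controls and 20.1 and 33.5 in titled Smad4 knockouts. No peak was called there in blood monocytes, repopulating macrophages or BMDMs, so within this series the region had a peak in Kupffer cell libraries alone. The nearest Nr1h3 knockout peak was 2980 bp away, at 13.6.

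Most of the 12 strongest stood beside a strong knockout peak. The region in Kif21b, a kinesin gene, measured 157.3 and 127.4 in controls, with a knockout peak of 261.4 at 906 bp. The region at Rhob, a small GTPase gene, measured 149.2 and 124.1, with a knockout peak of 317.2 at 491 bp. An intergenic region on chromosome 8 (126849592 to 126849875) measured 153.9 and 116.2, with a knockout peak of 338.8 at 125 bp. The other 8 were at Sdc3, Tex2, Tnfaip2, Elmo2, Mon1b, Hivep2, Cmip and Edem1, with control means of at least 86.8 and knockout peaks at 39 to 1780 bp.

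The strongest with no knockout peak within 5 kb, a subset chosen after the values were seen, were weaker. An intergenic region on chromosome 10 (118796582 to 118796944) led with 83.3 and 68.7 in controls. It measured 152.6 and 166.8 in PBS Kupffer cells, 81.4 and 120.5 in blood monocytes and 117.6 to 175.1 at 24 h, so its peak was not restricted to Kupffer cells. Stab2 and Frmd4a each gave 2 of the first 10, and Tcf23, Havcr1 and Tmtc2 gave 1 each. The Havcr1 region, 5403 bp from the gene, measured 61.3 and 42.9 in controls and 51.2 and 46.0 in PBS Kupffer cells. In titled Smad4 knockouts it measured 6.7 and 13, and in titled controls 23.6 and 36.6. Havcr1 encodes TIM1 and neighbours Timd4, which encodes the phosphatidylserine receptor TIM4.

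In libraries the rule did not use, the knockout-absent regions were called more often in PBS Kupffer cells and titled Smad4 controls than in any other group. They had a peak in 69.5% and 71.7% of cases in the 2 PBS Kupffer libraries and in 61.9% and 70.2% in the 2 titled Smad4 controls. The share was 11.6% and 11.9% in blood monocytes, 10.3% to 13.5% at 24 h, 23.2% and 31.3% at 48 h, 23.2% and 30.7% in untreated BMDMs and 28.1% and 30.1% with DLL4. In the titled Smad4 knockouts, which are Kupffer cells too, it was 13.5% and 27.1%, at or below the 48 h and BMDM libraries but for the 23.2% of 1 library in each. By the strain labels these would be the Smad4 controls, and the titled controls the knockouts. Over all regions called in both Nr1h3 controls the shares were higher in every library, with 89.6% and 92.2% in PBS Kupffer cells, 89.5% and 92.8% in titled Smad4 controls and 77.9% and 85.4% in titled Smad4 knockouts. They were 71.7% and 73.9% in blood monocytes, 75.2% to 79.9% at 24 h, 87% and 89.5% at 48 h and 82.2% to 86% in BMDMs.

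The regions with 1 knockout peak, of like control signal, were called about as often in PBS Kupffer cells (66.7% and 69.1%) and titled Smad4 controls (61.3% and 70.4%). They were called more often elsewhere, with 28.2% and 31.3% in blood monocytes, 27.9% to 33.9% at 24 h, 45.1% and 53.9% at 48 h and 44.1% and 53.5% in untreated BMDMs. No test was made of these shares, since regions of one library are not replicates.

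**Figure D1:**
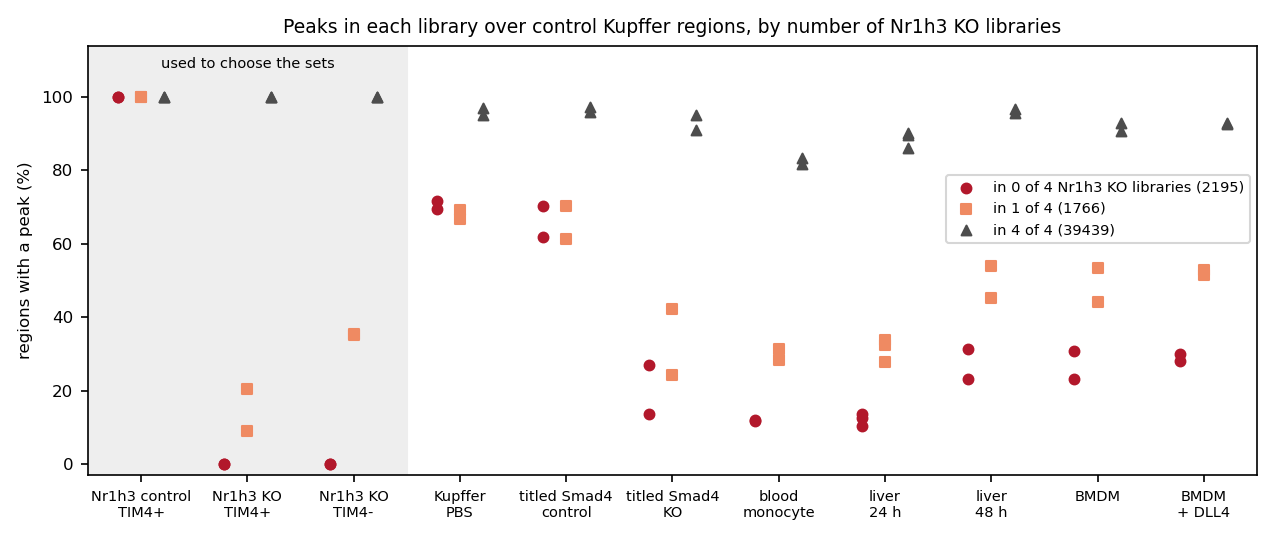
Share of regions (%) with a peak in each library, by group, for control Kupffer regions with a peak in 0, 1 or 4 of the 4 Nr1h3 knockout libraries; each point is 1 library, and the grey area holds the libraries that chose the sets. The knockout-absent regions (circles) lie at 61.9% to 71.7% in the PBS Kupffer and titled Smad4 control libraries and at 31.3% or below in the libraries of the other groups outside the grey area. The strain labels would exchange the Smad4 groups.

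A peak in all 4 PBS Kupffer and titled Smad4 control libraries, called the other control Kupffer libraries here, was present for 920 of the 2195 (41.9%), against 79.7% of all regions called in both Nr1h3 controls, and for 37.6% of those with 1 knockout peak. With all peak lists at the length of the shortest, this count was 557 (34.4%, against 78.3%). None of the 4 had a peak for 190 (8.66%, against 1.41%). Just 102 (4.65%, against 0.409%) had no peak in any of the 17 libraries, and 9 (0.41%, against 52.9%) had one in all 17. Of the 1120 without a knockout peak within 5 kb, 596 (53.2%) were in all 4, and of the 555 with one within 1 kb, 139 (25%) were.

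LXR target genes held 13 of these regions, at 8 of the 35 genes of the list. They made up 6.88% of the 189 control regions at those genes, where 4.18% of all control regions were knockout-absent. Abca1, the cholesterol exporter, held 3. The strongest of these (chromosome 4, 53111780 to 53112123, inside the gene) measured 45.1 and 37.0 in Nr1h3 controls, 19 and 25.9 in PBS Kupffer cells and 21.2 and 26.8 in titled Smad4 controls. It had no peak in any other library, titled Smad4 knockouts included. The other 2 Abca1 regions, at means of 9.94 and 9.25, had a peak in the Nr1h3 controls and nowhere else.

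Mertk encodes the receptor kinase with which macrophages take up dying cells. Its region (chromosome 2, 128715144 to 128715432) measured 47.4 and 29.7 in Nr1h3 controls, 19 and 21.1 in PBS Kupffer cells, 30.3 and 38.8 in titled Smad4 controls, 15.6 and 19.2 in titled Smad4 knockouts and 36.6 and 27.9 at 48 h. It had no peak at 24 h, in blood or in BMDMs. The nearest Nr1h3 knockout peak was 561 bp away at 19.8.

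Scd1 encodes stearoyl-CoA desaturase, which makes monounsaturated fatty acids, and had 2 regions. The stronger (chromosome 19, 44416250 to 44416536, 8541 bp from the gene) measured 35.3 and 27.1 in Nr1h3 controls, 28.4 and 50.8 in PBS Kupffer cells, 55.1 and 60.1 in titled Smad4 controls and 19.5 and 30.4 in titled Smad4 knockouts. Its highest values were those of the titled Smad4 controls, and its one value among repopulating macrophages was 8.07, in a 48 h library. The region over the start of Srebf1, the master regulator of fatty acid synthesis, measured 37.6 and 31.0 in Nr1h3 controls. It had a peak in 1 of 2 PBS Kupffer libraries (25.6) and 1 of 2 titled Smad4 controls (27.3), and a knockout peak of 57.4 stood 163 bp away.

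Cd5l, which encodes the secreted macrophage protein AIM, had 2 regions less than 10 kb from the gene. They measured 23.7 and 23.1, and 24.3 and 13.2, in the Nr1h3 controls. Tnfaip2 had 2, of which the stronger measured 111.6 and 101.0 in Nr1h3 controls but had no peak in PBS Kupffer cells and stood 1437 bp from a knockout peak of 343.7. Plin2, which encodes a lipid droplet coat protein, and Ppp1r3b had 1 each, at means of 10.8 and 7.97. None of the 13 had a peak in blood monocytes or at 24 h, 4 and 5 had one at 48 h, 6 and 7 in PBS Kupffer cells, 7 and 8 in titled Smad4 controls and 3 and 4 in titled Smad4 knockouts. Of the other 176 control regions at the listed genes, 65.9% had a peak in both blood libraries, 89.2% in both at 48 h and 89.2% in both PBS Kupffer libraries. Since 11.6% and 11.9% of all knockout-absent regions had a blood peak, a count of 0 among 13 says little about these genes.

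Kupffer identity genes held 30 knockout-absent regions, 14% of the 215 control regions at the 25 genes of that list, against 4.18% of all control regions. Stab2 gave 11 of them, and without it the count was 19 of 203 (9.36%). None of the 30 had a peak in blood monocytes, 0 to 2 had one at 24 h, 8 and 11 at 48 h, 22 and 24 in PBS Kupffer cells and 25 and 26 in titled Smad4 controls. In titled Smad4 knockouts there were 13 and 16. Of the other 185 control regions of the list, 32.4% had a peak in both blood libraries, 69.7% in both at 48 h, 89.2% in both PBS Kupffer libraries and 68.1% in both titled Smad4 knockouts. The blood share of all knockout-absent regions was 11.6% and 11.9%.

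Clec1b showed its region at the start site itself, in the stretch printed above. It measured 44.5 and 28.4 in Nr1h3 controls, 25.6 and 46.0 in PBS Kupffer cells and 19.4 and 21.9 in titled Smad4 controls. One 48 h library had a peak (30.5), and titled Smad4 knockouts, blood, 24 h and BMDM libraries had none. A knockout peak of 126.4 stood 2508 bp away.

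Clec4f, the Kupffer lectin whose promoter drives the Cre, had a region 450 bp from the gene at 17.9 and 12.5 in Nr1h3 controls and 12.1 and 16.4 in titled Smad4 controls, with none in PBS Kupffer cells. Timd4, whose protein names the gates in the titles, had 2 regions, at 24.3 and 14.5 and at 15.6 and 8.58 in the Nr1h3 controls. Both were called in all 4 of the other control Kupffer libraries, at 8.48 to 21.1.

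Cdh5, which encodes VE-cadherin and is expressed by endothelium and by Kupffer cells, had a region at 76.9 and 41.6 in Nr1h3 controls, 45.5 and 60.4 in PBS Kupffer cells and 36.6 and 38.1 at 48 h, but with a knockout peak 77 bp away. Cd38, an NAD-consuming ectoenzyme, had one at 62.5 and 52.2, and Paqr9 had 2, at 53.8 and 47.5 and at a mean of 10.2. Kcna2, a potassium channel gene, had one at 35.3 and 27.7 in Nr1h3 controls, 29.4 and 30.7 in PBS Kupffer cells and 8.93 and 11.8 in titled Smad4 knockouts. The scavenger receptor gene Marco, the iron exporter gene Slc40a1 and Slc16a9, Pcolce2, Itga9 and C6 had the rest beside Cd5l, with means of 7.97 to 28.9.

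**Figure D2:**
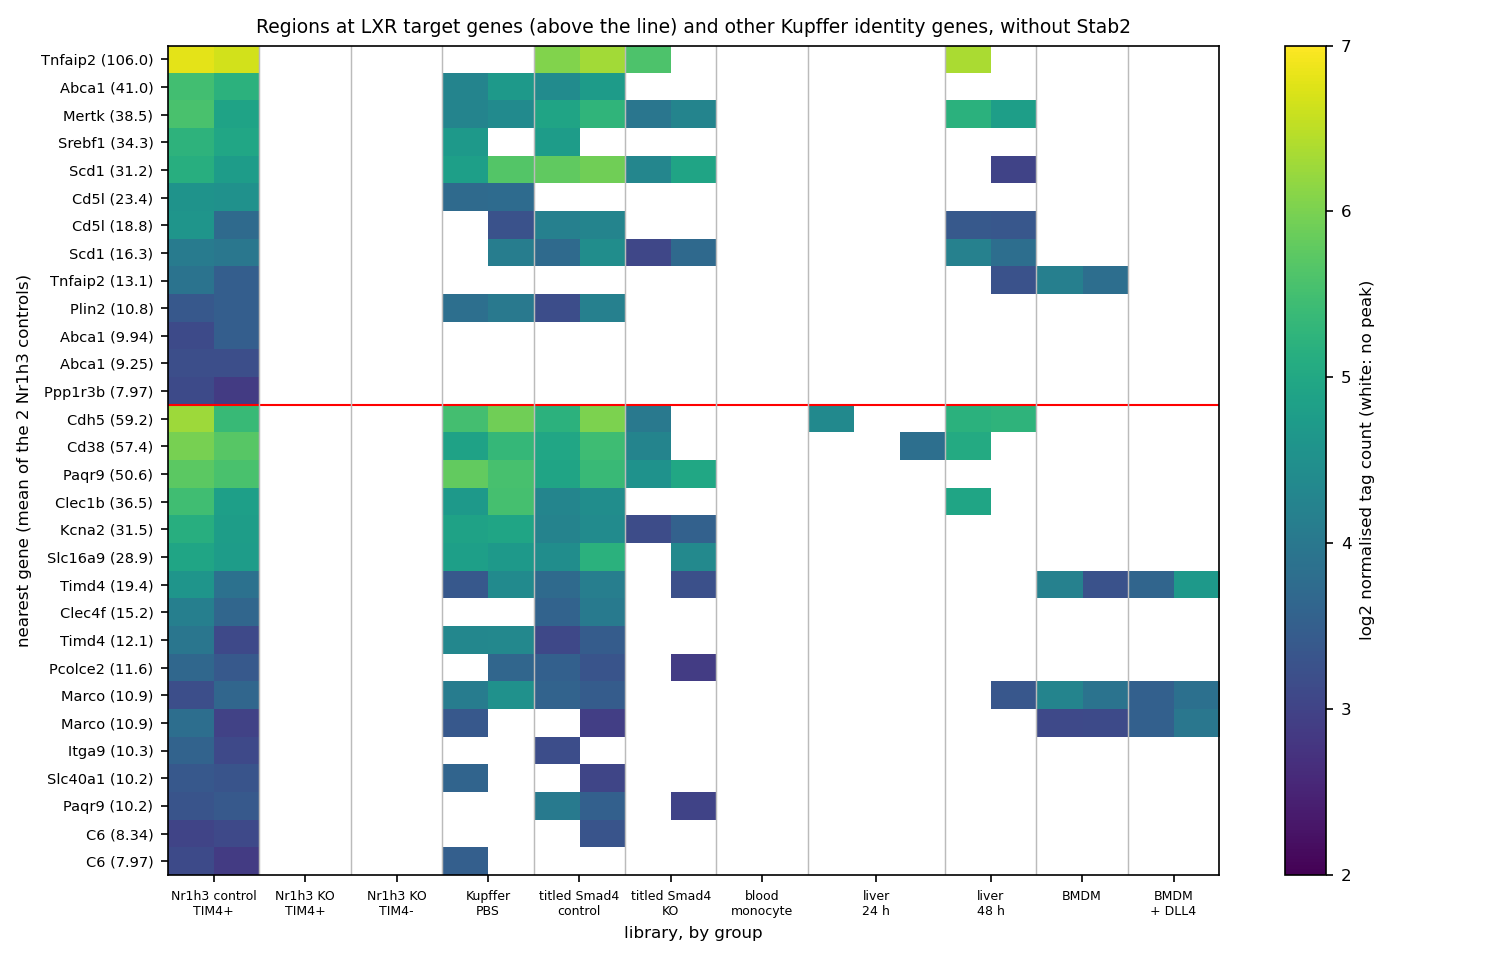
Log2 normalised tag count (colour) of each knockout-absent region at an LXR target gene (above the line) or another Kupffer identity gene other than Stab2 (below it), one row a region with its control mean, one column a library, white where no peak was called. The Nr1h3 control columns are coloured and the Nr1h3 knockout columns white in every row because the rows were chosen so. Outside those columns, the coloured cells are mostly those of the PBS Kupffer and titled Smad4 control libraries. No blood monocyte library has a peak in any row.

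Other gene lists held fewer than the Kupffer identity list. Phagocytosis and scavenger receptor genes had 21 of 215 (9.77%), more than LXR target genes, or 10 of 203 (4.93%) without Stab2. Stab2, Marco and Timd4 are also on the Kupffer identity list and Mertk on the LXR target list, so the lists overlap. Fcgr1, the gene of the high-affinity IgG receptor, had a region at 53.8 and 39.0 in controls. Monocyte genes had 5 of 76 (6.58%). The one at the start of the integrin gene Itga4 measured 46.8 and 39.0 in Nr1h3 controls and 205.9 and 375.0 in blood monocytes. It was called in none of the 4 other control Kupffer libraries and stood 21 bp from a knockout peak of 171.4. Shares near the 4.18% of all control regions were seen for complement (2 of 53, 3.77%), TGF-β and BMP (5 of 142, 3.52%), macrophage lineage regulators (7 of 217, 3.23%) and iron and heme genes (2 of 63, 3.17%). Inflammatory (5 of 178, 2.81%), nuclear receptor (4 of 146, 2.74%), Notch (2 of 120, 1.67%) and lipid uptake genes (1 of 107, 0.935%) lay further below the 4.18%. These counts are small, no share was tested, and no list is called depleted. Cholesterol synthesis genes had 0 of 44, too few control regions for a count of 0 to say much.

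Stab2 had more knockout-absent regions than any other gene. It encodes a scavenger receptor for hyaluronan and other ligands, best known from liver sinusoidal endothelium. Of the 12 control regions assigned to it (gene body chromosome 10, 86841194 to 87008038), 11 had no knockout peak, and none of the 11 had one within 5 kb. The single exception lay upstream, at -17.15 kb from the start site (87024968 to 87025213). It was called in all 23 libraries, at 28.3 and 30.4 in Nr1h3 controls and 10.2 to 19.4 in the 4 knockouts.

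The 11 differed in how widely they were open. The strongest (86885747 to 86886026, 122.06 kb into the gene) measured 70.0 and 69.3 in Nr1h3 controls, 93.8 and 115 in PBS Kupffer cells, 70.9 and 88.0 in titled Smad4 controls and 56.4 and 62.6 in titled Smad4 knockouts. It was also present at 48 h (38.3 and 55.0) and in BMDMs (32.6 and 22.8), and absent from blood and 24 h libraries. Its neighbours at 121.34 and 126.3 kb were also called in both 48 h and both untreated BMDM libraries. The one at 121.34 kb had in addition a peak of 11.2 in one 24 h library and none in titled control replicate 2. A region at 78.83 kb was called in both 48 h and both BMDM libraries as well, at 38.2 and 31.0 in the Nr1h3 controls and 44.2 and 45.5 in BMDMs.

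A pair near the start was more restricted. The region at 17.2 kb measured 72.3 and 46.2 in Nr1h3 controls, 65.4 and 98.7 in PBS Kupffer cells, 50.3 and 60.1 in titled Smad4 controls and 35.2 and 32.3 in titled Smad4 knockouts. The region at 17.93 kb measured 53.2 and 34.3, 81.5 and 104.5, 57.5 and 54.1, and 40.2 and 41.6 in the same groups. Both had a peak in 1 of 2 libraries at 48 h (16.1 and 8.07) and none in blood, 24 h or BMDM libraries. The upstream region at -8.61 kb measured 19.7 and 15.2 in Nr1h3 controls and was called in Kupffer cell libraries alone. The other 4, between 30.47 and 59.26 kb, had control means of 7.14 to 14.7, and the one at 35.81 kb holds the Gm16271 start printed above.

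Because endothelial cells also express Stab2, endothelial markers were read in the same libraries. Of 8 endothelial genes, 1 (Lyve1, a hyaluronan receptor gene) had a peak at a gene end in each Nr1h3 control, and 1 or 2 had one in the knockouts. Pecam1, Tek, Clec4g, Oit3, Erg and Sox18 had none in any of the 6. Stellate markers were at 0 of 8 in all 6 libraries, and hepatocyte markers at 1 of 8 in the controls and 0 or 1 in the knockouts. One knockout-absent region was assigned to a gene of the endothelial list (Pecam1), 1 of 22 control regions there (4.55%). That is near the 4.18% of all control regions. Kupffer markers had 8 of 65 (12.3%), macrophage markers 4 of 44 (9.09%) and neutrophil markers 1 of 14 (7.14%), and the other marker lists had none. The endothelial list did not include Stab2 or Cdh5, and from which cells the Stab2 regions came was not tested.

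**Figure D3:**
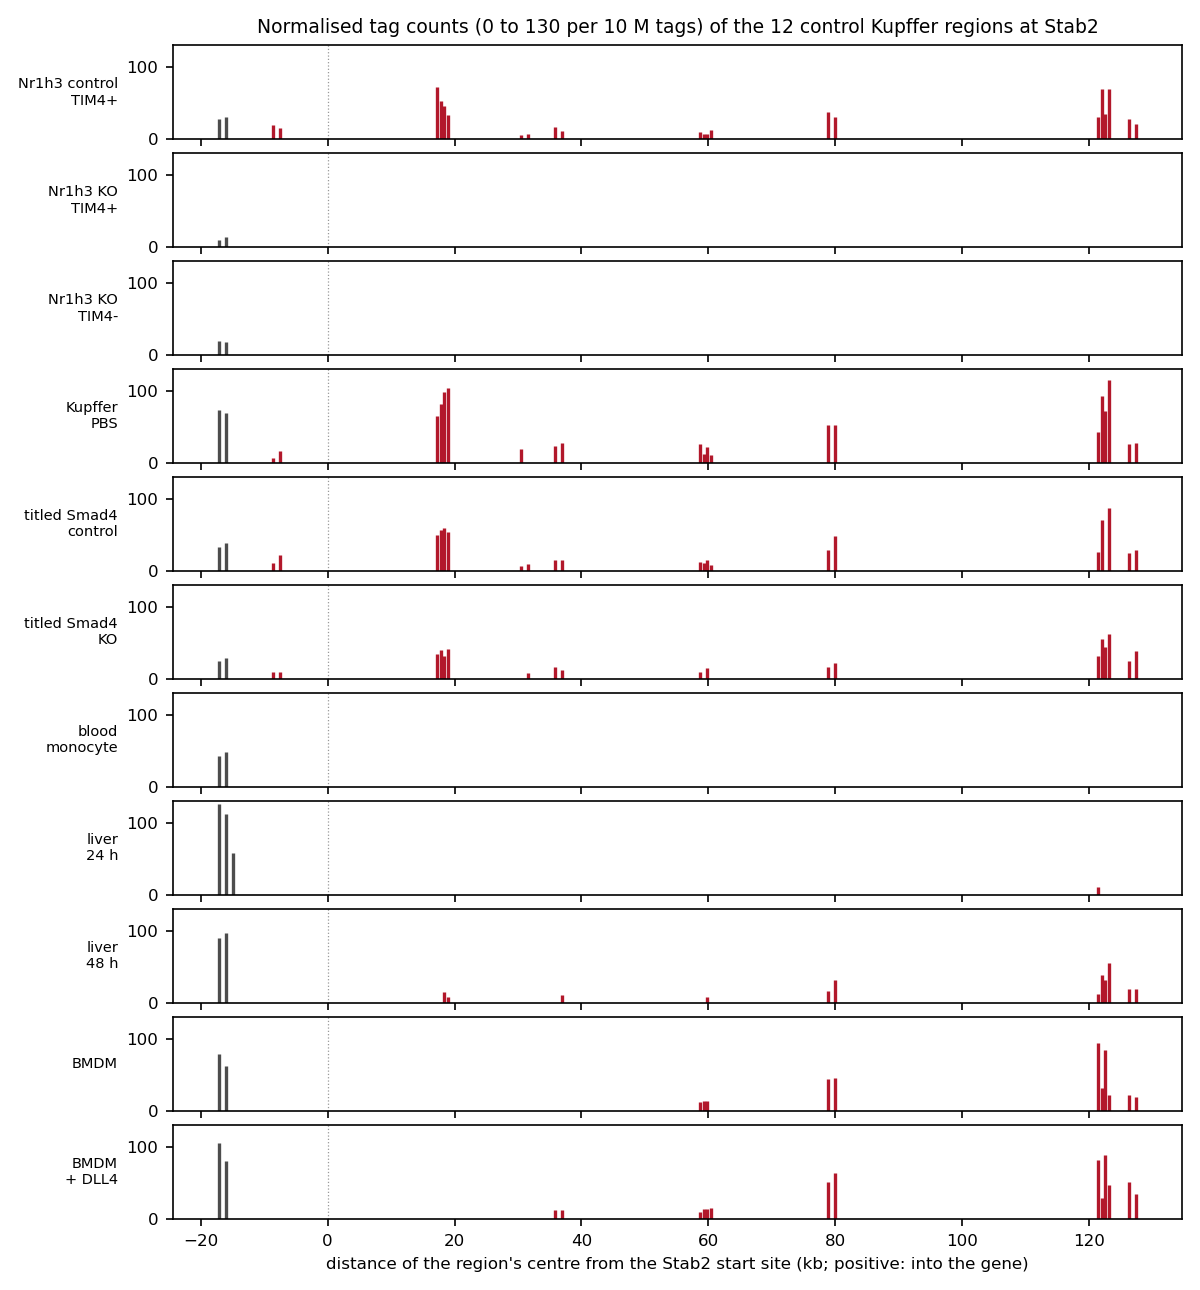
Normalised tag count of the 12 control Kupffer regions at Stab2 by distance from the start site (kb), one panel a group and adjacent bars the libraries of that group; red bars are the 11 regions without an Nr1h3 knockout peak, grey the one with a peak in every library, and no bar means no peak. The Nr1h3 knockout and blood panels hold the grey region alone, and 8 of the 11 red regions appear in all 4 Smad4 libraries.

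Behind Stab2 came Ank2 with 8 of 24 control regions, Frmd4a with 8 of 31, Tshz2 with 8 of 21, Frmd4b with 6 of 38, Itpr1 with 6 of 36 and Stard13 with 6 of 14. Btbd11 (6 of 8), Klhl29 (6 of 8) and Tenm2 (6 of 7) had most of their control regions in the set, and none of their 18 lay within 5 kb of a knockout peak. These are large genes, and nothing was tested about their number.

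The 6 regions in Tenm2, a teneurin adhesion gene, had control means of 7.43 to 31.2. The strongest (chromosome 11, 36941998 to 36942311) measured 33.5 and 29.0 in Nr1h3 controls, 74.9 and 78.6 in PBS Kupffer cells and 16.4 and 16.9 in titled Smad4 controls. The 6 in Klhl29 had means of 10.4 to 15.8, among them one at the start site at 15.6 and 11.9. No Tenm2 or Klhl29 region had a peak in any blood, repopulating or BMDM library. The Btbd11 regions were less restricted. The one at 85354338 to 85354705 of chromosome 10 measured 42.2 and 21.8 in Nr1h3 controls, 64.5 and 82.4 in PBS Kupffer cells, 11.4 and 15.5 in blood monocytes, 31.8 to 45.5 at 24 h and 130.8 and 118.2 in untreated BMDMs.

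Frmd4a, a gene of epithelial polarity, showed both kinds within one gene. Its 3 strongest regions lay side by side (chromosome 2, 4458359 to 4461232). The middle one measured 67.1 and 65.4 in Nr1h3 controls, 43.6 and 49.8 in PBS Kupffer cells, 32.1 and 38.8 in titled Smad4 controls and 11.2 and 11.8 in titled Smad4 knockouts, and none of the 3 had a peak outside Kupffer cell libraries. Another, at 4290470 to 4290792, measured 10.4 and 9.24 in Nr1h3 controls and 10.4 and 10.5 in PBS Kupffer cells, but 82.2 and 116.3 in blood monocytes, 29.1 to 49.6 at 24 h and 55.3 and 59.6 in untreated BMDMs. That region was higher in all non-Kupffer groups than in any Kupffer library.

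The blood, repopulating and PBS Kupffer libraries were read for which of them had a peak in these regions. They came from different mice, and the PBS Kupffer cells came from mice given PBS, not from a later time after diphtheria toxin. The word first below refers to the order blood, 24 h and 48 h. Both PBS Kupffer libraries had a peak in 1321 of the 2195 (60.2%, against 86.7% of all control regions), and 1146 of those (52.2% of the 2195, against 17.2%) had none in blood monocytes. With all peak lists at the length of the shortest, the 1146 became 727 (44.9%, against 19.3%). Of the 1321, 13.2% had a peak in a blood library, 7.19% first had one at 24 h and 19% first at 48 h. The remaining 800 (60.6%) had none in the 7 blood and repopulating libraries. Among the 998 such regions with 1 knockout peak, these shares were 35.5%, 15.3%, 15.3% and 33.9%. As shares of the 2195 the 4 classes held 7.97%, 4.33%, 11.4% and 36.4%, where they held 69.5%, 7.93%, 4.77% and 4.5% of all control regions. Peaks in both PBS Kupffer libraries and neither 48 h library were found for 826 (37.6%), against 4.97% of all control regions. The reverse was found for 56 (2.55%, against 2%). Both 48 h libraries and no 24 h library had a peak in 158 (7.2%, against 4.12%), and all 24 h libraries and no 48 h library in 4 (0.182%, against 0.103%). Blood monocytes had peaks in both libraries, and PBS Kupffer cells in neither, for 32 (1.46%, against 1.47%).

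**Figure D4:**
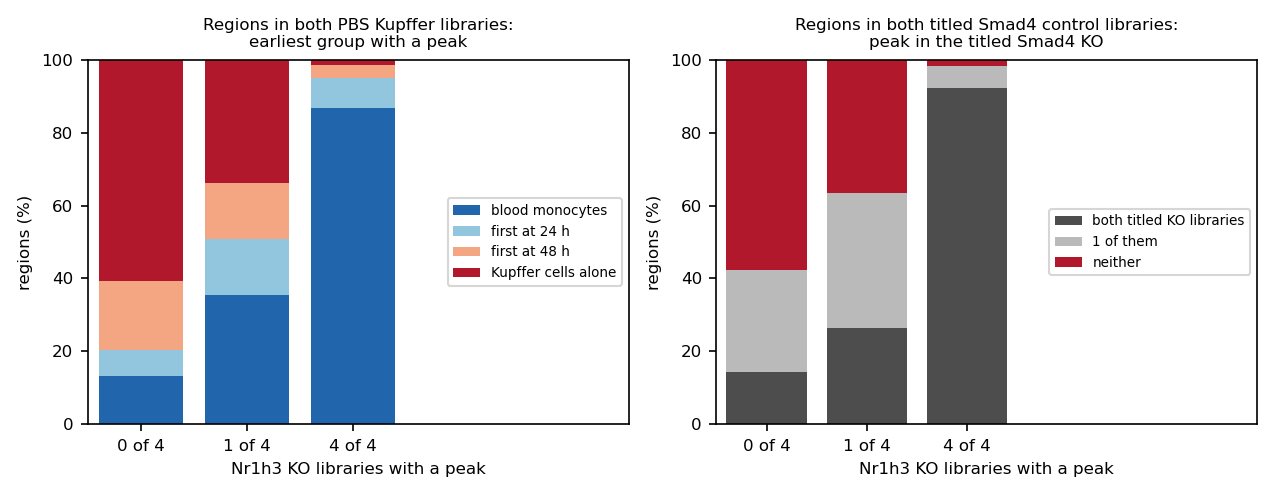
Left, regions called in both PBS Kupffer libraries by the earliest group with a peak (%); right, regions called in both titled Smad4 controls by the number of titled Smad4 knockout libraries with a peak (%); bars are control Kupffer regions with a peak in 0, 1 or 4 of the 4 Nr1h3 knockout libraries. Of the knockout-absent regions (first bar), 60.6% on the left have no peak in any blood or repopulating library. On the right, 57.6% have none in either titled knockout. The PBS Kupffer cells are not a later time point of the repopulating cells.

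Signal could be compared only where a region was called in every library of both groups, which left 5.33% to 18.9% of the knockout-absent regions in any comparison. The tested ones are therefore those open in both groups and not the set as a whole. Differences are log2 fold changes of the normalised tag count plus 1, relative to the median region of each library, tested with limma over all shared regions (two-sided, Benjamini-Hochberg, threshold 0.05). The p-values set a difference between groups against the spread between libraries, which limma draws in part from all shared regions. Apart from mouse numbers in the titles of the blood and repopulation libraries, no label says that libraries of one group came from separate animals. In the Smad4 and BMDM comparisons that spread is therefore not known to be one between animals.

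Between PBS Kupffer cells and blood monocytes, 117 knockout-absent regions were shared. In Kupffer cells 35 (29.9%) were higher and 14 (12%) lower by limma, where 25.7% and 25.3% of all 37850 shared regions were. Without centring, which shifted the median region by -0.40, the counts were 15 higher and 25 lower, so the balance between directions rests on the scaling. Without blood replicate 2, the lower count was 9. The median difference was 0.14, against 0.00 over all shared regions. Among the 266 shared regions with 1 knockout peak, limma called 49 higher and 46 lower, with a median of -0.02.

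The largest rise was at Daam1, a formin gene of actin assembly (chromosome 12, 71807392 to 71807654), with 48.9 and 63.5 in Kupffer cells and 8.95 and 9.87 in monocytes. Its log2 fold change was 2.84 (SE 0.34, limma adjusted p = 7.3e-11). The Btbd11 region named above followed at 2.76 (SE 0.31, limma adjusted p = 1.1e-11). A region at Negr1, which encodes a neuronal adhesion protein, measured 31.6 and 46.4 against 9.87 and 11.4, a difference of 2.15 (SE 0.35, limma adjusted p = 3.9e-07). In each of the 3 both Kupffer values lay above both monocyte values.

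The largest fall was at the Frmd4a region that was strong in monocytes, at -2.72 (SE 0.31, limma adjusted p = 1.4e-11). At Fst, the gene of the activin-binding protein follistatin, a region measured 8.63 and 10.4 in Kupffer cells and 51.3 and 76.1 in monocytes, a difference of -2.21 (SE 0.33, limma adjusted p = 5.9e-08). At Gsr, the glutathione reductase gene, it was 11.5 and 12.3 against 39.9 and 55.0, a difference of -1.5 (SE 0.33, limma adjusted p = 0.00012). These are regions where the signal was lower in PBS Kupffer cells than in blood monocytes although both had a peak.

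Between PBS Kupffer cells and 48 h repopulating macrophages, 277 were shared, of which limma called 78 (28.2%) higher and 11 (3.97%) lower in Kupffer cells, against 13.7% and 12.6% of all 46198 shared regions. The counts were 53 and 21 without centring (median shift -0.30). They were 42 higher without PBS Kupffer replicate 1 and 5 lower without 48 h replicate 2. The median was 0.41, against -0.01 over all. Among the 445 shared regions with 1 knockout peak, limma called 86 higher and 15 lower in Kupffer cells, with a median of 0.27. The largest rise of a knockout-absent region was inside Tmtc2, a mannosyltransferase gene (chromosome 10, 105271268 to 105271564). It measured 185.8 and 186.9 in Kupffer cells and 21.8 and 23.5 at 48 h. That was a difference of 3.27 (SE 0.22, limma adjusted p = 6.9e-18). The same region measured 64.8 and 36.3 in the Nr1h3 controls and had one peak, of 34.4, among the 4 Smad4 libraries, so control Kupffer libraries themselves differed there.

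A region at the transporter gene Abca13 measured 83.4 and 91.1 against 10.5 and 13.2, a difference of 3.07 (SE 0.30, limma adjusted p = 3.1e-12). One at the phosphodiesterase gene Pde1a measured 62.6 and 65.2 against 8.72 and 9.53, a difference of 2.96 (SE 0.32, limma adjusted p = 1.1e-10). Of the 4 Stab2 regions tested, 3 had higher signal in PBS Kupffer cells than at 48 h, with differences of 1.44 (SE 0.22, limma adjusted p = 1.1e-06), 1.69 (limma adjusted p = 4.2e-05) and 1.47 (limma adjusted p = 0.00018), and the other was at 0.79 (limma adjusted p = 0.065). The largest falls were at the Frmd4a region again (-1.76, limma adjusted p = 4.2e-05), at Thap4 (-1.58, limma adjusted p = 0.00031) and at Tmc3 (-1.32, limma adjusted p = 0.0021).

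Few knockout-absent regions passed the test between 48 h and 24 h. Of 118 shared, 4 (3.39%) were higher and 2 (1.69%) lower at 48 h by limma, against 1.92% and 3.53% of all 48442. Uncentred and quantile-normalised fits each gave 4 and 1. Without 48 h replicate 2, both counts were 0. Without 48 h replicate 1 they were 2 and 0, without 24 h replicate 1 the lower count was 1, and without 24 h replicate 3 it was 4. The largest rise was at Nxpe4, with 31.4 and 70.4 at 48 h and 10.9 to 14.2 at 24 h, a difference of 1.72 (limma adjusted p = 0.0055). Regions at Apaf1, a gene of the apoptosome (1.48, limma adjusted p = 0.0084), and Efcab11 (1.42, limma adjusted p = 0.0081) followed. The falls were at D630039A03Rik (-1.46, limma adjusted p = 0.0095) and Card19 (-0.79, limma adjusted p = 0.024).

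In the Smad4 experiment, the titled controls both had a peak in 1171 of the 2195 (53.3%, against 86.6% of all control regions). Smad4 is the shared mediator of TGF-β and BMP signals. Of the 1171, 674 (57.6%) had no peak in either titled knockout, 329 (28.1%) had one in 1 and 168 (14.3%) in both. Over all 45489 control regions in both titled controls, 5.91% had none in either and 83% had one in both. For the 910 with 1 Nr1h3 knockout peak these shares were 36.5% and 26.4%. The 674 are 30.7% of all knockout-absent regions, against 5.11% of all control regions, and the reverse pattern held for 5 (0.228%, against 0.43%).

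The titled Smad4 knockouts had shorter peak lists (49438 and 57403 peaks against 60727 and 67555) and fewer tags in peaks (15.4% and 19.6% against 19.5% and 25.2%), and the part of this in the counts was not tested. Where peaks were called in all 4 libraries, signal could be tested for 168 of the regions. In titled knockouts 19 (11.3%) were lower and 2 (1.19%) higher by limma, against 1.5% and 1.57% of all 40067 shared regions. Without titled control replicate 1 or 2, the lower counts were 10 and 9. The higher count was 0 without centring and without titled knockout replicate 1, titled knockout replicate 2 or titled control replicate 2. The median was -0.30, against 0.07 over all. Among the 240 shared regions with 1 Nr1h3 knockout peak, limma called 23 lower and 1 higher in titled knockouts, with a median of -0.03. An excess of lower over higher calls was therefore not particular to the knockout-absent regions.

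The largest fall was in an intergenic region of chromosome 1 (77761394 to 77761693), with 9.3 and 11.2 in titled knockouts and 78.7 and 89.7 in titled controls. The difference was -2.59 (SE 0.24, limma adjusted p = 1.1e-13). The Hgsnat region, the strongest of all in the Nr1h3 controls, differed by -1.40 (SE 0.20, limma adjusted p = 2.1e-07). A region in the cation exchanger gene Slc24a3 measured 8.93 and 11.2 against 34.5 and 36.6, a difference of -1.40 (limma adjusted p = 0.00052, or 0.052 without titled control replicate 1). The stronger Scd1 region was lower too, with a difference of -0.87 (SE 0.22, limma adjusted p = 0.0091), as was the middle Frmd4a region of its group of 3, which differed by -1.2 (limma adjusted p = 0.0034), and the Havcr1 region, by -1.21 (SE 0.29, limma adjusted p = 0.0064). The 2 that were higher, an intergenic region of chromosome 12 (1.18, limma adjusted p = 0.016) and one at the orphan receptor gene Nr2f1 (1.13, limma adjusted p = 0.033), did not pass without centring.

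The Smad4 libraries were also read gene by gene. At Stab2, 8 of 11 regions were called in all 4 Smad4 libraries and 1 was in both titled controls and neither titled knockout. All 8 could be tested and none passed, with differences from -0.58 to 0.52. These are relative to the median region, which lay at -0.27 before centring, so their balance rests on the scaling. Uncentred means were lower in titled knockouts at each of the 8 but that at 86881533 to 86881761 (32.2, against 27.4 in titled controls). At 86990574 to 86990904, for one, they were 33.8 against 55.2. At Btbd11, Klhl29 and Tenm2, 5 of 6 regions each were in both titled controls and neither titled knockout, and none was in all 4. At Grik2 this was 4 of 4 and at Tshz2 3 of 8. Whether the genes differ from each other was not tested.

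Few knockout-absent regions passed the test for DLL4 in BMDMs. Of 414 shared between treated and untreated cells, 12 (2.90%) were higher and 5 (1.21%) lower with DLL4 by limma, against 2.36% and 1.52% of all 72015. Quantile normalisation gave 6 and 4. Leaving out a library gave 2 to 7 higher and 0 to 6 lower. These were 2 and 2 without DLL4 replicate 1, 7 higher without DLL4 replicate 2, 3 and 1 without untreated replicate 1 and 6 and 0 without untreated replicate 2. The Negr1 region named above led here, with 28.0 and 29.1 against 7.01 and 9.83, a difference of 1.63 (SE 0.33, limma adjusted p = 0.00037). It was followed by Msl1 (1.37, limma adjusted p = 0.0036) and Il12a, the gene of an IL-12 subunit, at 49.9 and 56.0 against 18.4 and 24.5 (1.24, limma adjusted p = 0.00052).

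At Stab2, 1 of 5 regions tested was higher with DLL4. The one at 126.3 kb measured 50.9 and 34.2 with DLL4 and 22.7 and 19.3 without, a difference of 0.93 (SE 0.27, limma adjusted p = 0.027). The largest falls were at Zmiz1 (-1.09, limma adjusted p = 0.028), Nln (-0.97, limma adjusted p = 0.00044) and Fbxo36 (-0.85, limma adjusted p = 0.014). Both DLL4 libraries and neither untreated one had a peak in 26 knockout-absent regions (1.18%, against 0.79%), and the reverse held for 15 (0.683%, against 0.455%).

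**Figure D5:**
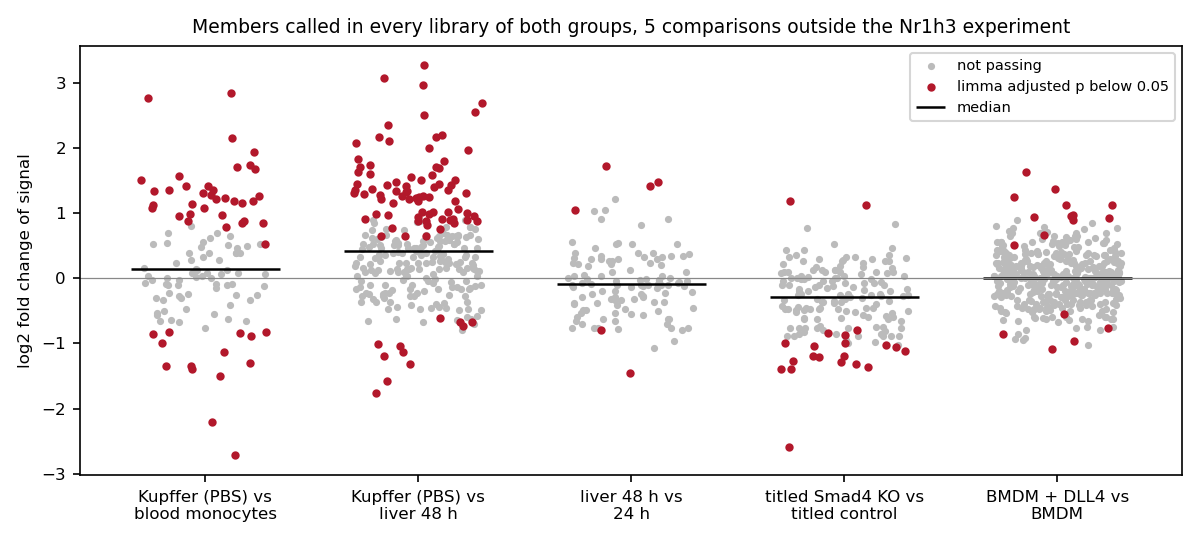
Log2 fold change of signal, relative to the median region, of each knockout-absent region called in every library of both groups, in 5 comparisons outside the Nr1h3 experiment; red points pass limma at an adjusted p of 0.05, grey points do not, and black bars are medians. The median is 0.41 for PBS Kupffer cells against 48 h and -0.30 for titled Smad4 knockouts against controls.

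At promoters, the 66 knockout-absent regions that touched a start overlapped 73 of the 32619 RefSeq windows searched. The DR4 motif, the arrangement that the LXR and RXR pair prefers, was in 3 of the 73 (4.11%), 3.03% of all windows and 1.93% of windows at regions in all 4 knockouts. A single AGGTCA was in 13 (17.8%, against 16.2% of all windows). The MAF motif (TGCTGAC) was in 7 (9.59%, against 4.71%) and the RBPJ motif (GTGGGAA) in 9 (12.3%, against 6.38%). AP-1 was in 5 (6.85%, against 7.85%), the E-box in 7 (9.59%, against 8.69%) and the SMAD palindrome in 6 (8.22%, against 6.56%). Both strands were searched, and an AGGTCA counts again where it is part of a DR4 match. The C/EBP motif (TTGCNNAA) was in 7 (9.59%, against 10.9%), RUNX (TGTGGTT) in 3 (4.11%, against 5.29%) and KLF (CCACACCC) in 3 (4.11%, against 3.57%). PU.1 (GAGGAAGT) was in 2 (2.74%, against 3.22%), STAT (TTCNNNGAA) in 2 (2.74%, against 8.34%) and IRF (GAAA, any 2 bases, GAAA) in 1 (1.37%, against 3.46%). The extended nuclear receptor motif TCAAGGTCA and the NF-kB motif (GGGA, any base, TTTCC) were in 0 of the 73, where 0.426% and 0.414% of all windows held them. With 73 windows these counts are small, and no test was made. Each window was searched in full, so a match may lie outside the knockout-absent region that touches it. Some regions touch more than 1 window, and their matches can count more than once.

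Of the 3 windows with a DR4 match, that of Mmp12 held it inside the region. The Mmp12 region was weak, at 8.1 and 12.5 in Nr1h3 controls and 17.1 and 24.0 in PBS Kupffer cells, with no peak in the Smad4 libraries and a knockout peak of 14.1 at 888 bp. The other 2 windows overlap each other at Gm32791, and their match lies outside the region. The remaining knockout-absent regions are outside promoter windows, and their sequence was not analysed here.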

How the data were processed

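ATAC-seq peak lists of 23 mouse libraries were used. The knockout-absent regions and the gene lists were chosen with earlier results of these data known. The submitters' processing notes name Bowtie2, HOMER and the mm10 build, and versions are not given in the sources used here. Per the file headers, each peak's signal is the number of tags in it as HOMER's findPeaks reports it, normalised to 10 M tags. The score values are findPeaks scores per the file headers and served only for an alternative that dropped each library's lowest 25%. Per the file headers, findPeaks ran on single libraries without input, in its factor mode (200 bp peaks, FDR 0.001, at least 4-fold over the local 10 kb, local p 0.0001).

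Peaks on 19 autosomes and X were merged where they overlapped by 1 bp, and the 1205 peaks elsewhere, out of 1605886, were not used. The strongest peak gave a library's value. Regions were assigned to the nearest of 21631 protein-coding gene bodies within 50 kb (GRCm38.p6). Signal was tested with limma 3.58.1 (R 4.3.3, trend = TRUE, two-sided, threshold 0.05 after Benjamini-Hochberg adjustment over all shared regions) on log2 of the value plus 1, each library centred on its median, over regions that had a peak throughout the 2 groups compared. The test was checked on simulated data. Regions named in the text are the 12 strongest, the 3 largest rises and falls of each of 5 comparisons, those of the 10 genes with most regions, those at LXR target and Kupffer identity genes, those with a DR4 match, and others named as examples of a list or chosen after their values were seen. Figures and counts were made with Python 3.11.15, pandas 2.3.3, numpy 2.4.6 and matplotlib 3.10.9. Alternatives were another overlap (100 bp), a margin of 1 or 5 kb without a knockout peak, the score filter, lists of equal length, other centring, pseudocount and filter, a replicate block and leaving out each library.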

Additional observations from a re-analysis of the deposited data

How the results depend on the processing

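Without one control library the rule gave up to 5677 regions. With no knockout peak within 5 kb as well, an alternative chosen after seeing the data, the set had 1120 regions, of which 596 were in all 4 other control Kupffer libraries and 743 in both PBS Kupffer libraries and no blood library. With all lists at the length of the shortest, these last 2 counts were 557 and 727. Of 63 count values under alternatives other than leaving out a library, 50 were within 1.5 times of those reported and 13 were not. Without centring, PBS Kupffer cells against blood gave 15 higher and 25 lower, against 48 h macrophages 21 lower, 48 h against 24 h gave 1 lower, and titled Smad4 knockouts 0 higher. Quantile normalisation gave 1 lower for 48 h against 24 h, 0 higher for Smad4 and 6 higher for DLL4.

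For the rule, each Nr1h3 library was left out in turn. This gave 2356 to 5677 regions, with 978 to 1145 in all 4 other control Kupffer libraries and 1211 to 1651 in PBS Kupffer cells without blood. Leaving one out only loosens the rule, so these counts could not fall and do not check stability. For limma, each library of the groups compared was left out in turn. The limma counts ranged over 24 to 31 higher and 9 to 13 lower for PBS Kupffer cells against blood, and 42 to 69 and 5 to 11 against 48 h. They were 0 to 6 and 0 to 4 for 48 h against 24 h, 0 to 1 and 9 to 16 for titled Smad4 knockouts, and 2 to 7 and 0 to 6 for DLL4. Where a group was left with 1 library, that library was assumed to vary like the others. The 28 regions named as the largest rises and falls by limma had 252 alternative values. Of these, 217 kept direction and threshold, 35 kept direction but did not pass and 0 turned. They were picked for large differences in the same data, so they could hardly turn and the 0 says little about stability. Other regions named with limma values, such as those at Stab2, Scd1 and Havcr1, were not among the 28. Replicate numbers occur in the BMDM groups, whose same-numbered libraries did not deviate together (r of -0.04). With 2 libraries in each group both pairs must give the same r, so this is a single value. A fit with the replicate block gave 11 higher and 5 lower. Weak peaks of 17 to 23 tags limit how firmly the absence of a peak can be read.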
